A study of Caenorhabditis elegans with 2 samples.

Results

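Translation initiation and elongation factor genes of the nematode Caenorhabditis elegans were examined for binding of LSL-1, a zinc finger protein known from work on the worm germline. Membership was set by gene symbol, and the set was picked with earlier results of these data known. Of 19973 protein-coding genes on the nuclear chromosomes in the Ensembl annotation of WBcel235 (ce11), 41 had a symbol that starts with eif-, ife-, iff- or eef- followed by a digit, or were ifg-1, egl-45 or inf-1. The names cover more than the canonical factors: eif-4A3 encodes the helicase of the exon junction complex, and eif-6 a protein that keeps the large ribosomal subunit apart from the small one. They also miss some factors, such as iffb-1 for eIF5B. DNA bound by the tagged protein was recovered from sonicated chromatin and sequenced (ChIP-seq), with an antibody against green fluorescent protein (GFP) on 2 biological replicates of whole worms of strain OP720, young adults of 69 h and of mixed sex, grown from starved L1 larvae. The strain has the unc-119(tm4063) mutation and an inserted transgene, wgIs720, that encodes LSL-1 fused at its C-terminus to TY1, EGFP and 3xFLAG tags and also carries unc-119(+). The transgene therefore adds copies of lsl-1, all tissues are mixed in the extract, and both replicates form 1 group with no untagged worms analysed here.

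Translation starts when eIF2 brings the initiator tRNA to the small ribosomal subunit, eIF3 holds the subunit ready, and the eIF4F complex, made of the cap-binding protein eIF4E, the scaffold eIF4G and the helicase eIF4A, recruits the mRNA. The exchange factor eIF2B recharges eIF2 with GTP, and stress kinases slow translation by acting on this step. During elongation, eEF1A carries each aminoacyl-tRNA to the ribosome, the eEF1B subunits recharge eEF1A, and eEF2 moves the ribosome along the mRNA. Several of these factors exist in worms as paralogs with different tissue use. Among the cap-binding proteins IFE-1 is bound to germ granules, and of the eIF5A genes iff-1 is needed in the germline and iff-2 in the soma.

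LSL-1 peaks lay at the promoters of 24 of the 41 genes (58.5%), against 14.2% of all protein-coding genes (2836 of 19973). A gene is called bound where the window from 1000 bp upstream to 200 bp downstream of its annotated 5' end holds the summit of a peak on the submitters' thresholded list, made by irreproducible discovery rate (IDR), a measure of how well a peak's rank holds up between replicates. Elongation factors had the highest share, 5 of 6, followed by eIF3 with 8 of 12, eIF2 and eIF2B with 5 of 8, the other factors with 4 of 8 and eIF4F with 2 of 7. On the autosomes 24 of 38 members were bound (63.2%), against 16.3% of all genes there. None of the 3 members on X, eef-1A.2, ife-2 and ife-4, was bound, and 1.03% of all X-linked genes were. On chromosome I 9 of 12 members were bound, where the share of all genes was 22.9%, and on II and III 6 of 12 and 4 of 8, where the shares were 15.9% and 24.4%. Chromosomes IV and V had 2 of 2 and 3 of 4 members bound, beside 14.9% and 9.33% of all genes. The genes were picked with earlier results of these data known, and the shares are a description with no test. Gene expression was not measured and no control sample was used here, so signal that does not depend on the tagged protein was not measured at these genes.

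**Figure D1:**
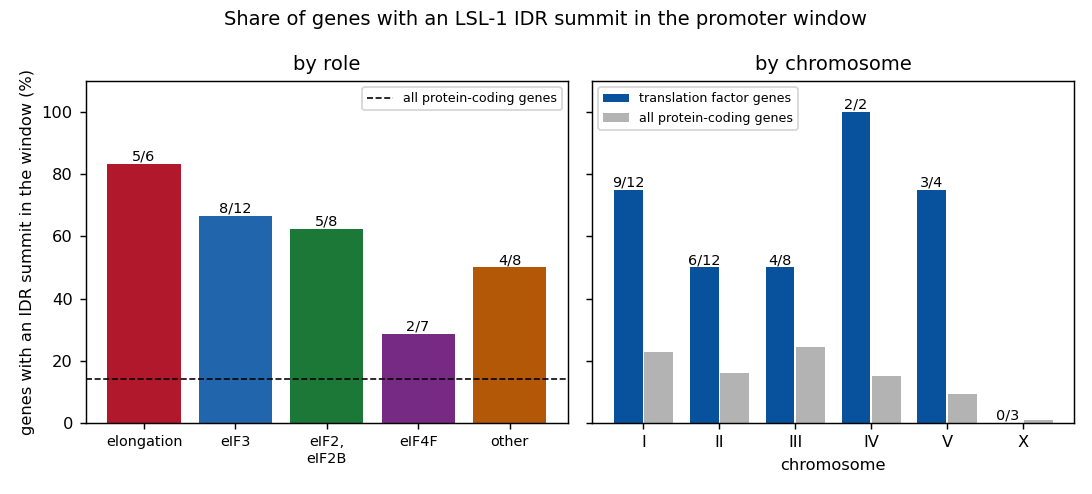
Bars give the percentage of genes with an IDR summit in the promoter window, by role of the factor (left) and by chromosome (right, translation factor genes beside all protein-coding genes). Labels give bound genes over genes in the group and the dashed line marks 14.2%, the share of all protein-coding genes. Each role stands above the line, and on each autosome the translation factor genes have the higher bar.

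The peaks of the bound members were of middling strength. Strength is given as rank by the submitters' signal value, where rank 1 is the strongest peak, and the IDR list ends at rank 3897. Bound members had a median rank of 1592.5, and all bound protein-coding genes had a median rank of 1443.5. With the IDR list cut into 4 equal bins by rank, from the strongest to the weakest, the members numbered 7, 8, 7 and 2 of 24. Among all bound genes the same bins held 35.5%, 27.8%, 20.8% and 15.8%. All but 1 of the 24 peaks, that of eef-1B.2, were matched by a region with its summit 100 bp away or less in the first 3897 regions of each replicate (23 of 41 members, 56.1%, against 12.2% of all genes). Replicate ranks given for a peak or region are those of the region with its summit within 100 bp in replicate 1 and then replicate 2, unless said otherwise. The median distance from the pooled summit to a replicate's summit was 6 bp. Across the 23 peaks matched in both full lists, Spearman's rho between the replicate ranks was 0.954, as a description of peaks that were selected from these same replicates. Read counts are not part of the lists, so the depth behind a rank is unknown. The full lists hold 30000 regions for the pooled data, 30000 for replicate 1 and 26018 for replicate 2. The submitters label the pooled list as peaks and background, so a region ranked past 3897 may be background.

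**Figure D2:**
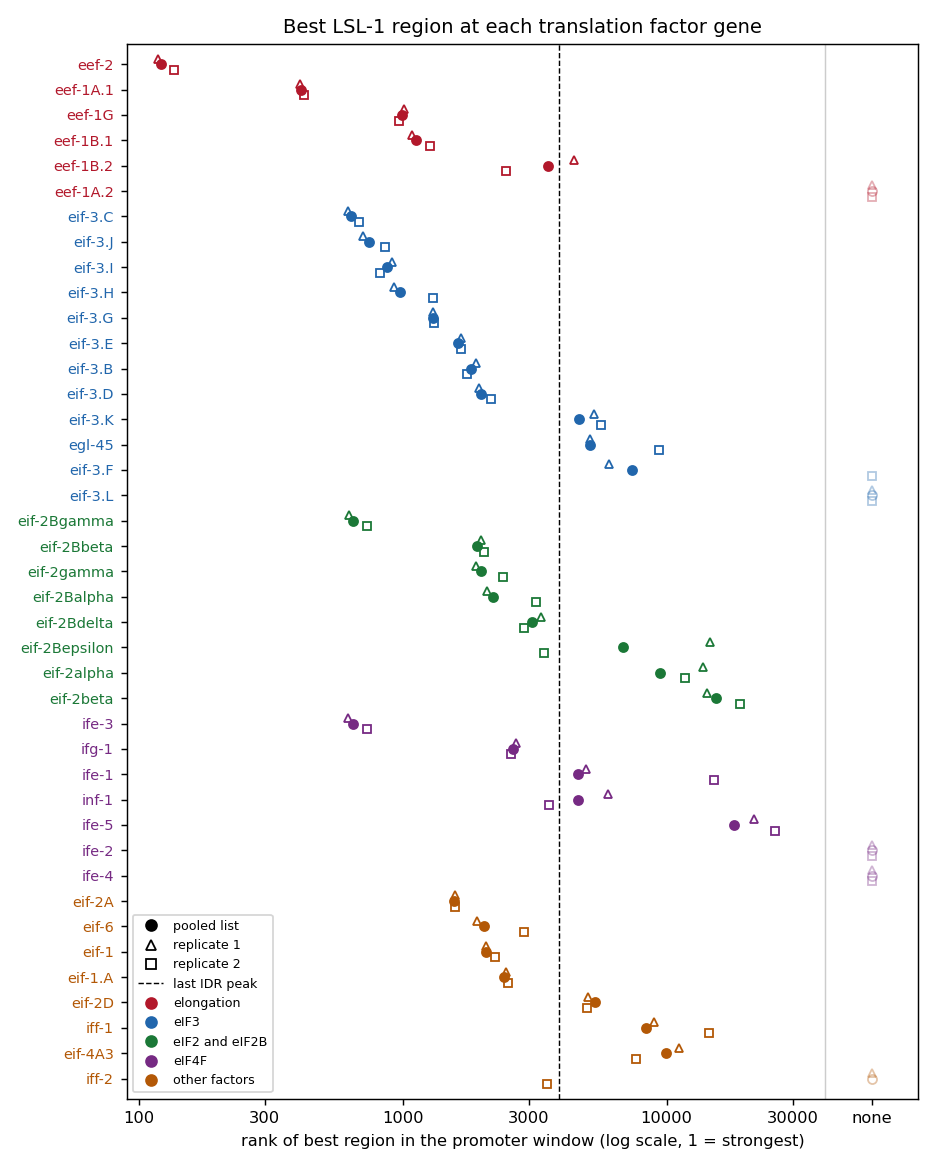
Each line is 1 gene, with the rank of the strongest region in its promoter window on a log scale in the pooled list (filled circles), replicate 1 (triangles) and replicate 2 (squares). The dashed line is the last IDR peak, rank 3897, and symbols at "none" mark lists with no region in the window. Of the 24 bound genes all but eef-1B.2 have the symbols of all 3 lists left of the line.

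The summits of the bound members were then read for short sequence words. A set of 3 overlapping 6-letter words had been found frequent at LSL-1 summits in an earlier reading of the same peaks. These are the word ACAGTA, its neighbour shifted by 1 letter, which reads TACAGT, and the word shifted once more, which reads CTACAG. Within 50 bp of the summit on either strand, 1 of 24 member peaks held any of them (4.17%), while 20.4% of the 2269 promoter peaks and 27.3% of all 3897 IDR peaks did. In flanks 200 to 250 bp away the figures were 2 of 24 for members, 9.03% for promoter peaks and 10.8% for all peaks. The word GGCGCA, from the same earlier reading, lay at 5 of 24 member summits (20.8%), 18.8% of promoter summits and 18.2% of all summits. Its last 5 letters, GCGCA, a word chosen after the sequences were seen, lay at 11 of 24 member summits (45.8%), against 38.9% of promoter peaks and 36.0% of all peaks, and in 3 of 24 member flanks (12.5%), 8.77% and 9.44%. A match is a string of letters and says nothing of what protein was there.

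To show what stands at these summits, the bases from 50 before to 50 after the summit are given for 8 of the 15 bound members on chromosomes II to V, each with no annotated UTR in that stretch, on the strand of the gene and 5' to 3', from the RefSeq assembly of WBcel235. Of the 10 such members with no UTR there, the first 4 have the strongest peaks, eef-1B.2 is the weakest, eif-3.B and eif-3.D are eIF3 genes, and eif-2Balpha is the only member with one of the first words. Capitals mark the word GCGCA or its reverse complement, which reads TGCGC, or both where they overlap as TGCGCA, and in eif-2Balpha the run TACTGTA, which holds the reverse complements of the word ACAGTA and of its shifted neighbour TACAGT. They lie at chrIII:6972058-6972158 (eef-1A.1, minus strand), chrV:8205-8305 (ife-3, minus), chrII:6968575-6968675 (eif-2Bgamma, minus), chrII:8442376-8442476 (eif-3.G, plus), chrIV:15037138-15037238 (eef-1B.2, plus), chrII:14795127-14795227 (eif-3.B, plus), chrIII:8971754-8971854 (eif-3.D, minus) and chrIII:9542645-9542745 (eif-2Balpha, plus).
eef-1A.1: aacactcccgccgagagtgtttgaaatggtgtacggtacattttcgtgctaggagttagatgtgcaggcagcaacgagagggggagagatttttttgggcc
ife-3: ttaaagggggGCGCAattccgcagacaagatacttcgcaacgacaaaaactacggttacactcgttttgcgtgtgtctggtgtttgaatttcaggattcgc
eif-2Bgamma: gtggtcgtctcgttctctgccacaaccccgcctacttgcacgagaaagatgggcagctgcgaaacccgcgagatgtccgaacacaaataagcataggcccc
eif-3.G: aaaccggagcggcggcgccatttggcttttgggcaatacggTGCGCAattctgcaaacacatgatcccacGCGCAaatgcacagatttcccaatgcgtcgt
eef-1B.2: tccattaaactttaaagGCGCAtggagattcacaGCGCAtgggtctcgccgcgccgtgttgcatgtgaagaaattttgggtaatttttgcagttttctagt
eif-3.B: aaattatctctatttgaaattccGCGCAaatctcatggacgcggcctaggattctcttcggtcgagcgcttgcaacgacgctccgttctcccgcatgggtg
eif-3.D: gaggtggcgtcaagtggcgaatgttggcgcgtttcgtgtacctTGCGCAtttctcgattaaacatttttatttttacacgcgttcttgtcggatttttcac
eif-2Balpha: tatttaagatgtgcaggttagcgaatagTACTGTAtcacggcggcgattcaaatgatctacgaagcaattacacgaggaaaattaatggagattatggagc
In eif-3.G and eif-3.D the capital run TGCGCA begins 9 and 7 bases before the summit, in eif-3.B GCGCA begins 27 bases before it, and in ife-3 40 bases before it. The weak peak of eef-1B.2 holds GCGCA at 33 and 16 bases before the summit. The strongest of these peaks, at eef-1A.1, and that of eif-2Bgamma hold none of the words.

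The 2 strongest member peaks lay at elongation factor genes, and so did the weakest. The gene eef-2, for the translocation factor eEF2 (chrI:9163531-9166952), had a peak of rank 122 in the pooled list, 118 in replicate 1 and 136 in replicate 2, with its summit 13 bp upstream of the 5' end. This is the highest rank among the 41 genes, and both replicates placed it alike. The eEF1A gene eef-1A.1 (chrIII:6970026-6971712) had rank 413, with 410 and 423 in replicates 1 and 2, at -396 bp. Its paralog eef-1A.2 on X (chrX:7823654-7825769), which encodes the same kind of factor, had no region at all in its window in any of the 3 lists of regions, and the nearest IDR summit lay at -49753 bp. Of the exchange factor genes, eef-1G, for the gamma subunit, had rank 994 (replicates 1008 and 965, summit at -16 bp) and eef-1B.1 rank 1120 (1084 and 1265, at 2 bp, in its own UTR). The paralog eef-1B.2 was bound at rank 3550, near the end of the list. Replicate 2 matched this peak at rank 2458. Replicate 1 had no region with its summit within 100 bp of the peak, and its best region elsewhere in the window ranked 4443. The peak thus stood inside the 3897 top regions in replicate 2 alone. In 3 of the 5 bound elongation factor genes the summit was within 16 bp of the annotated 5' end. That limit follows the distances seen, and no share over all bound genes is given for it. Each of the 3 peaks was shared with a gene on the opposite strand.

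The 8 bound eIF3 genes held peaks between ranks 636 and 1986, all in the top regions of both replicates. In pooled, replicate 1 and replicate 2 order, the ranks were 636, 623 and 683 for eif-3.C and 749, 711 and 854 for eif-3.J. They were 874, 911 and 820 for eif-3.I, and 980, 924 and 1299 for eif-3.H. The lower ranks were 1308, 1304 and 1320 at eif-3.G, then 1625, 1663 and 1670 at eif-3.E. They were followed by 1810, 1889 and 1748 at eif-3.B and 1986, 1943 and 2153 at eif-3.D. The order of the replicates followed the pooled order except that replicate 2 ranked eif-3.I before eif-3.J. Of the 4 eIF3 genes that were not bound, eif-3.K and egl-45, which encodes the large subunit eIF3a, had pooled regions of ranks 4673 and 5144. The gene eif-3.F had one of rank 7374 with none in replicate 2, and eif-3.L had no region in any list.

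The summits at 6 of the 8 bound eIF3 genes lay at much the same distance from the gene. They were at -230 bp for eif-3.C, -227 bp for eif-3.B, -226 bp for eif-3.D and -234 bp for eif-3.H, at -218 bp for eif-3.I and -214 bp for eif-3.E. Those of eif-3.G and eif-3.J were further away, at -341 and -942 bp. Thus 6 of the 8 fell from 200 to 250 bp upstream, which made up all 6 of the 24 bound members in that range, and 10.3% of all 2836 bound genes had their best summit there. The range was chosen after the distances were seen, so the shares carry no test. Of these 6 summits, 2 lay closer to a gene on the opposite strand. That of eif-3.D was at -88 bp from R08D7.4, and that of eif-3.H at -136 bp from C41D11.3. Measured to the start of the coding sequence, the 6 distances ran from -252 bp to -220 bp. Over all bound members the median distance was -228.5 bp, with quartiles of -390.8 and -163.5 bp, and over all bound genes it was -250 bp, with quartiles of -449 and -139 bp.

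**Figure D3:**
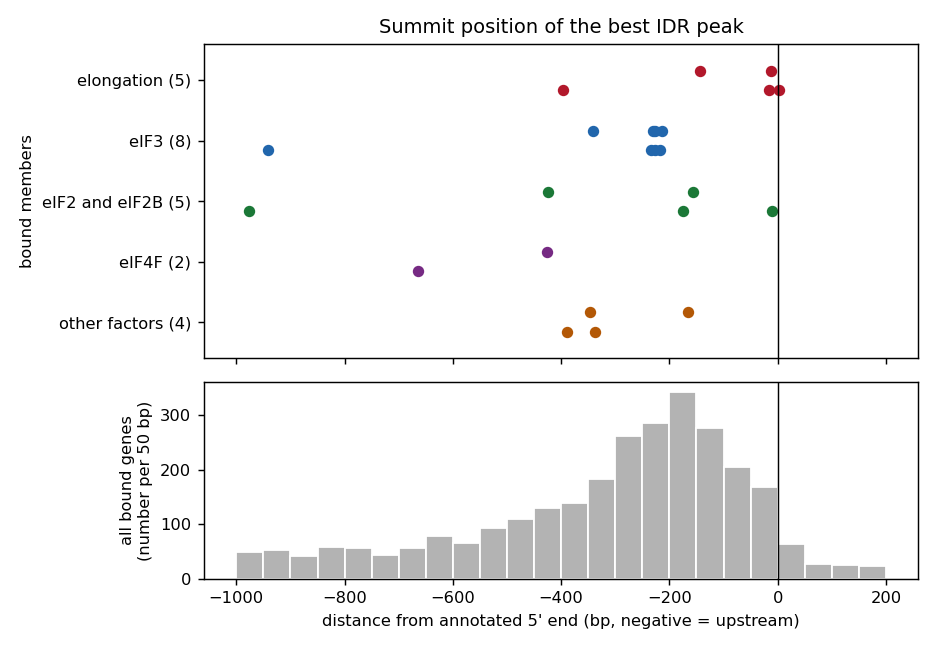
The upper panel shows the distance of the summit of the best IDR peak from the annotated 5' end for the 24 bound members by role, with points offset up and down for visibility. The lower panel counts the same distance for all 2836 bound protein-coding genes in bins of 50 bp, and 6 of the 8 eIF3 points stack between -234 and -214 bp.

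In the eIF2 branch the exchange factor genes were bound more often than those of eIF2 itself, in numbers too small to compare. Of the 5 eIF2B genes, 4 were bound. The gamma subunit gene eif-2Bgamma had rank 650 (replicates 626 and 734), with a summit at -977 bp in an intron of the upstream gene C15F1.5. The subunit genes eif-2Bbeta, eif-2Balpha and eif-2Bdelta followed at ranks 1914, 2191 and 3104. Their ranks were 1985, 2083 and 3357 in replicate 1 and 2038, 3203 and 2873 in replicate 2. The catalytic subunit gene eif-2Bepsilon was not bound: its pooled region ranked 6833 and was matched at rank 3435 in replicate 2, with no match in replicate 1. Of the eIF2 genes eif-2gamma, for the GTPase subunit, was bound at rank 1983 (1894 and 2393, at -175 bp). The gene eif-2alpha, whose product is the target of the stress kinases, had a region of rank 9429 (13706 and 12424), and eif-2beta one of rank 15378, matched at rank 17717 in replicate 1 and not in replicate 2.

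Genes of the eIF4F complex had the lowest share bound, 2 of 7, in numbers too small to compare with the other roles. The 7 include ife-2 and ife-4 on X, where 1.03% of all genes were bound. The cap-binding protein gene ife-3 had rank 646 (621 and 736) at -427 bp, and the eIF4G gene ifg-1 rank 2615 (2692 and 2571) at -665 bp, in a UTR of the divergent gene M110.3. The helicase gene inf-1 was just outside the list, at pooled rank 4627, with rank 5978 in replicate 1 and 3591 in replicate 2. The germ granule paralog ife-1 ranked 4610, matched at rank 4965 in replicate 1 and not in replicate 2, with the region's summit 185 bp downstream of the 5' end and 6 bp upstream of the first coding base. The paralog ife-5 had a weak region of rank 18002, matched at rank 24120 in replicate 1 and not in replicate 2. The X-linked genes ife-2 and ife-4 had no region in any list. Thus of the 5 cap-binding paralogs, ife-3 alone had an IDR peak.

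Of the remaining factors, eif-2A, eif-6, eif-1 and eif-1.A were bound. The gene eif-2A, for an eIF2-independent tRNA delivery factor, had rank 1560 (1583 and 1579) at -166 bp. The genes eif-1 and eif-1.A, whose products act in start codon selection, had ranks 2069 (2067 and 2246) and 2419 (2474 and 2498), at -389 and -347 bp. The gene eif-6 had rank 2041 (1917 and 2881) at -337 bp. The gene eif-2D ranked 5336 (5037 and 8887) and eif-4A3 ranked 9988 (11113 and 7660), both outside the IDR list. Neither eIF5A gene was bound, but both had regions nearby. In the germline paralog iff-1 the window held a region of rank 8322 (8927 and 14531), and an IDR summit of rank 1376 lay 347 bp downstream of the annotated 5' end, beyond the window. That summit was at -242 bp from the 5' end of a shorter iff-1 transcript. In the somatic paralog iff-2 there was a region of rank 3513 in replicate 2, at -82 bp, with none in replicate 1 or in the pooled list.

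At the edge of the IDR list, the members just inside were eif-2Bdelta at rank 3104 and eef-1B.2 at rank 3550, and those just outside were ife-1, inf-1 and eif-3.K at 4610, 4627 and 4673. The deposited −log10 q-values of the last 2 inside were 3.32 and 3.37, and those of the next 3 were 3.12, 3.12 and 3.13. The q-value does not follow the rank: the better-ranked bound members eif-6, eif-1 and eif-2Balpha had −log10 q-values of 3.13, 3.14 and 3.16. In all, 12 of the 17 members without an IDR summit had a lower-ranked pooled region in the window. Counting those, 36 of 41 members (87.8%) had some region, against 36.7% of all protein-coding genes. The pooled list is labelled as peaks and background, so these regions are not calls of binding. The 5 with none were eef-1A.2, ife-2, ife-4, eif-3.L and iff-2.

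Many member peaks could belong to a neighbour. Of the 24 bound members 14 (58.3%) shared the best peak with another protein-coding gene, as did 54.5% of all bound genes. In 14 of 14 cases a sharing gene was on the opposite strand. For the best peak, 8 of the 24 members were not the gene with the closest 5' end. Members were the closest gene in 66.7% of cases, against 72.0% of all bound genes. The peak of eef-2 was shared with clsp-1, which encodes the checkpoint mediator claspin, at -252 bp. That of eef-1A.1 was shared with rfc-4, a clamp loader subunit gene, at -145 bp, and that of eef-1G with the replisome gene ctf-4, at -164 bp. Among eIF3 genes, eif-3.I shared with abtm-1, eif-3.H with C41D11.3, eif-3.D with R08D7.4 and eif-3.E with B0511.17. The others were eef-1B.1 with aco-2 (the mitochondrial aconitase gene), eif-2Balpha with mut-7 (a small RNA pathway gene), eif-6 with pbs-2 (a proteasome subunit gene), eif-1 with vps-24 and pigb-1, eif-2Bbeta with Y47H9C.8, eif-1.A with H06H21.37 and ifg-1 with M110.3. With each summit given to the closest gene alone, 17 members were bound (41.5%, against 10.5% of all genes). The 7 lost were ifg-1, eif-1, eif-3.H, eif-6, eif-2Bbeta, eef-1A.1 and eif-3.D. The gene eif-2Balpha stayed bound through a further peak of rank 2733 at -152 bp, and eif-3.G, eif-3.J and eef-1B.1 also had more than 1 summit in the window. Such genes made up 16.7% of bound members and 10.3% of all bound genes. The best summit lay outside every protein-coding gene in 20 of 24 cases, in a UTR in 3 and in an intron in 1. Genes of other types were not looked at. No such count over all bound genes is given here, so these numbers describe the members only.

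Some members lie close behind another gene on the same strand, as genes of worm operons do. The 3' end of a same-strand gene was within 500 bp upstream of 7 members, and 4 of these were bound (57.1%), against 13.0% of all genes so placed. Without them 20 of 34 members were bound (58.8%), against 14.5% of other genes. The operon-like member eif-2gamma lay 313 bp behind tbca-1, eef-1B.2 lay 295 bp behind fcd-2, and eif-3.C lay 401 bp behind sys-1. Each had its summit in the gap to that gene, at -175, -143 and -230 bp. The bound gene eif-2Bgamma lay 252 bp behind C15F1.5, but its summit at -977 bp was in an intron of C15F1.5 and not in the gap. The gene eif-2alpha had no IDR summit in its window but lay 133 bp behind phb-1, the prohibitin gene, whose promoter held a peak of rank 456, at -1797 bp from eif-2alpha. Position alone defines these cases, and whether the genes are transcribed together was not tested.

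The count of bound members was compared under other settings, each beside all genes. With the upper 50% of IDR peaks 15 members were bound (36.6%, against 9.0% of all genes). With the own top list of replicate 2 alone the count was 27 (65.9%, against 13.6%), and eif-2Bepsilon, inf-1 and iff-2 were added. With that of replicate 1 alone it was 23 (56.1%, against 14.2%), without eef-1B.2. A window of 500 bp upstream and 100 bp downstream gave 21 (51.2%, against 11.3%), leaving out ifg-1, eif-2Bgamma and eif-3.J. A window of 2000 bp upstream gave 26 (63.4%, against 17.5%), adding eif-2alpha and iff-1. With region midpoints it was 23 (56.1%, against 14.2%). With the 5' ends of every annotated transcript, a setting added later, it was 25 (61.0%, against 15.2%), and with the start of the coding sequence 24 (58.5%, against 14.2%). Leaving aside the setting that counts any pooled region, 10 members were bound under all 10 settings and 12 under none of them. These 2 counts have no share over all genes beside them, and the settings reuse the same peaks.

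**Figure D4:**
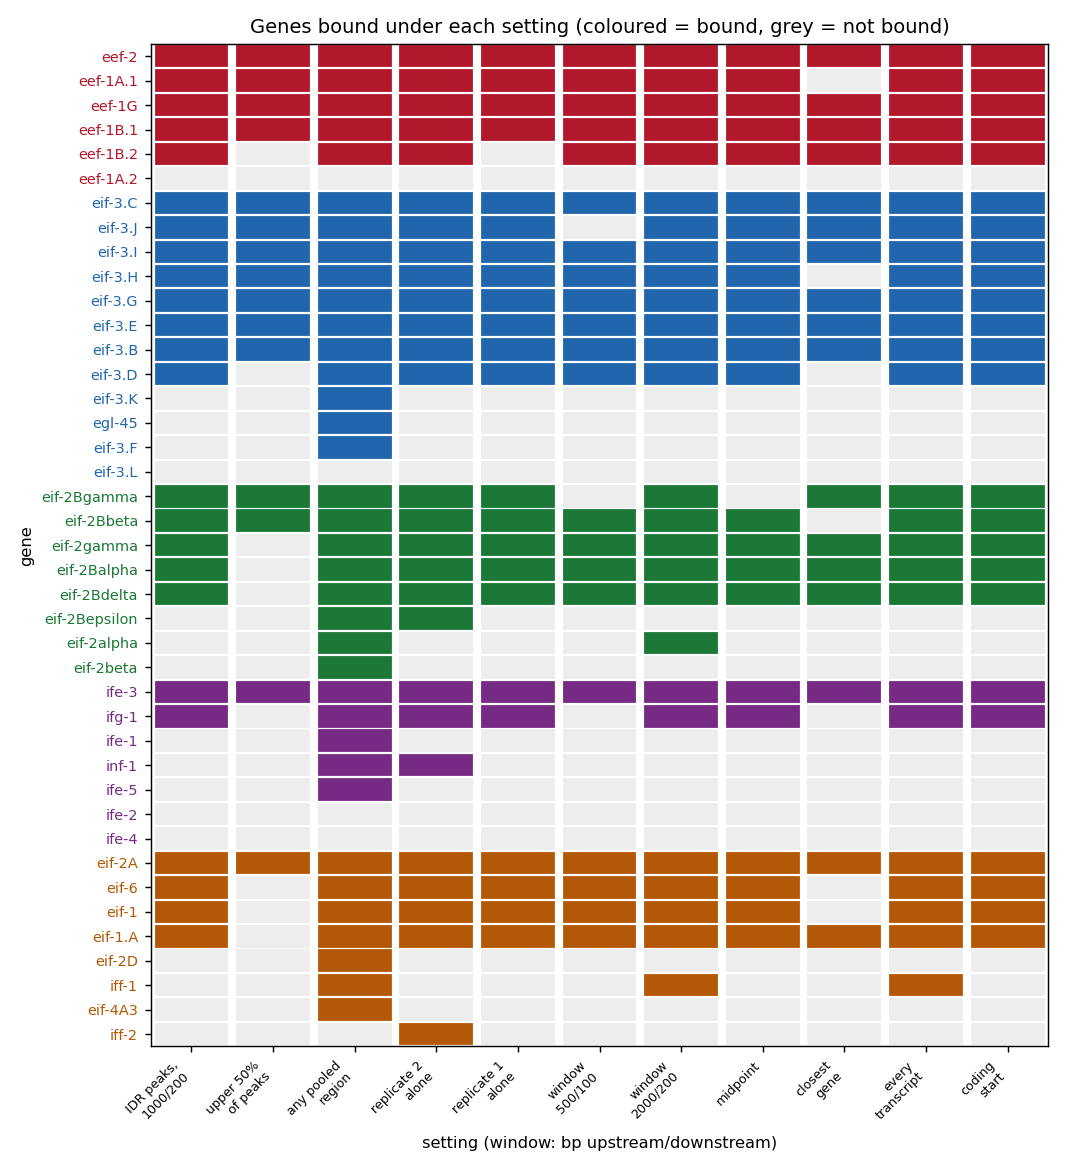
Each row is 1 of the 41 genes and each column a setting, with coloured cells where the gene had a summit in its window and grey cells where it had none. The column of any pooled region fills 36 rows, and the rows of bound genes keep their colour in most columns in every role.

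Other genes of the translation pathway, a list of 37 with annotated symbols, were bound in 20 cases (54.1%, against 14.2% of all genes), with a median rank of 1366 among those bound. The peak was in the top regions of both replicates for 17 of the 37, against 12.2% of all genes. It was not for ragc-1, pab-1 and erfa-3. Of these 20 genes 17 shared the peak with another protein-coding gene, and 9 were bound when each summit was given to the closest gene alone. By branch these were 6 of 9 partners and repressors of the cap and poly(A) tail, 5 of 8 termination, recycling and rescue factors, 3 of 5 mitochondrial factors, 3 of 6 modifiers of elongation factors, 2 of 6 genes of the TOR branch and 1 of 3 eIF2 kinases and their activators. The strongest were ifet-1, for the eIF4E-binding repressor (rank 81, replicates 69 and 112, shared with rps-1) and drr-2, for a relative of eIF4H (rank 227, 222 and 247, shared with set-16). They were followed by rheb-1, for an activator of TOR (rank 266, shared with spk-1), and larp-1, for an RNA-binding protein (rank 275, shared with wip-1). Next came abcf-2 (rank 480), the mitochondrial elongation factor gene tufm-1 (rank 890), abcf-1 (rank 927), the release factor gene erfa-1 (rank 938), dph-3 of diphthamide synthesis (rank 1062) and gcn-1, the activator of GCN2 (rank 1360). Among direct partners of the members, the kinase genes gcn-2 and pek-1, which act on eIF2, and efk-1, which acts on eEF2, had no IDR summit in their windows. Neither did dhps-1, for the first enzyme of eIF5A hypusination, while dohh-1, for the second, had one of rank 1372. Of the genes without one, pek-1 lies on X, where 1.03% of all genes were bound. The best pooled regions ranked 4913 at gcn-2, 14405 at efk-1 and 17765 at pek-1, and dhps-1 had none.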

How the data were processed

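LSL-1 ChIP-seq regions came from 2 biological replicates in 1 group. Per the notes deposited with each sample, regions were called by the authors on each replicate and on both pooled, on assembly ce11; the sources used here do not name the caller, the aligner or the IDR threshold. Ranks come from the deposited signal value, a score on the caller's own scale, and were made list by list. The −log10 q-value deposited for each region was printed only for members at the edge of the IDR list and, beside them, for eif-6, eif-1 and eif-2Balpha. Depth is unknown, so no interval was computed.

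Genes came from Ensembl release 115 of WBcel235, the mitochondrial genome left out. Bound genes were counted as the report states; replicate matches used 100 bp and the 3897 top regions of each list. With 1 group there is no comparison between groups, and all shares are descriptions without a test. All members are named, with genes sharing their peaks and the 10 strongest bound genes of the pathway list, plus partners of members. Of 50 symbols in that list 39 matched and 37 were used: efl-1 (an E2F factor) and eftu-2 (a spliceosome protein) were entered in error and left out. The members, lists, words and tests were chosen with earlier results of these data known. Summit assignment was tested on simulated peaks. The tools were matplotlib 3.10.9, scipy 1.17.1, numpy 2.4.6 and pandas 2.3.3 in Python 3.11.15.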

Additional observations from a re-analysis of the deposited data

How the results depend on the processing

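With 24 as the main count, the number of members with a summit in the window ran from 15 with the upper 50% of peaks to 36 with any pooled region, background included. From a single replicate's own top list it was 23 to 27, and in the other settings 17 to 26. With the upper 50% of peaks the count over all genes was 1797, that of the pathway list 13 and the median rank of bound members 980; with any pooled region these were 7337, 35 and 2055. The closest gene alone gave 9 bound pathway genes and a median rank of 1308. Other median ranks were 1625 (500 bp upstream, and likewise with midpoints) and 1583 to 1748 (a single replicate's list), beside 1592.5. Within 100 bp of the summit 2 member peaks held a word of the first set, beside 1. Keeping efl-1 and eftu-2 gave 22 pathway genes. Replicate support of 23 members was 22 to 23 under other match rules. No paired analysis was possible because there is 1 group. The lists hold no read counts, so what depth limits is unknown.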
